A study of Rattus norvegicus with 6 samples.

Results

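The miR-181 family of the rat hypothalamic arcuate nucleus (ARC) was described from 6 small RNA libraries, 3 of sham-operated rats and 3 of rats with chronic constriction injury of the infraorbital nerve (CCI-ION). All listed rows whose name starts with rno-miR-181a, rno-miR-181b, rno-miR-181c or rno-miR-181d, of either arm, were taken, which gave 9 of the 562 mature miRNAs in the files, 4 of them 5p arms (rno-miR-181a-5p, rno-miR-181b-5p, rno-miR-181c-5p and rno-miR-181d-5p) and 5 of them 3p arms. The prefix rno, for rat, is left out from here on. All rats were Sprague-Dawley, 8 to 10 weeks old and, by the study's methods, male unless stated otherwise. In the CCI-ION group the left nerve was loosely tied with silk, and in the sham group it was exposed without a tie. ARC tissue was taken on Day 14 after surgery. CCI-ION is a model of trigeminal neuropathic pain, and the ARC holds the neurons that make β-endorphin, so the comparison asks which miRNAs of this region differ after the nerve injury. For its miRNA profiling the study names more rats than libraries in each group, and whether rats were pooled is not given in the sources used here, so n counts libraries and the p-values measure only the spread between them, which may be technical.

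A miRNA hairpin is cut into a duplex of a 5p and a 3p arm, of which usually 1 arm, the guide, is kept in the Argonaute protein and the other, the passenger, is lost. The guide finds messenger RNAs mainly through its seed, bases 2 to 8 counted from its 5′ end. In the miR-181 family the 5p arms are the known guides. miR-181a is best known for setting the sensitivity of the T cell receptor in developing lymphocytes, and the family is also expressed in neurons and astrocytes.

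The 4 guides are shown first because they share the seed and differ by a few bases outside it, which is what separates their counts. The sequences are those of RefSeq (build GRCr8), written 5′ to 3′ with the seed in capitals.
miR-181a-5p: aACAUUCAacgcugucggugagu
miR-181b-5p: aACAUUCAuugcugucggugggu
miR-181c-5p: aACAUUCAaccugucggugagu
miR-181d-5p: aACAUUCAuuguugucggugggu

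The seed ACAUUCA was found in these 4 rows and in no other of the 512 listed miRNAs that had a sequence in the RefSeq table. Counted from 1 at the 5′ end of the miRNA named first, miR-181a-5p and miR-181b-5p differed by A9U, C10U and A21G. miR-181b-5p and miR-181d-5p differed by C12U alone. miR-181c-5p, of 22 bases, was miR-181a-5p, of 23 bases, without the G at position 11. How reads were divided between such similar sequences is not given in the sources used here, so the single values of miR-181a-5p against miR-181c-5p and of miR-181b-5p against miR-181d-5p are uncertain.

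The passenger arms are shown because they differ between hairpins that share a guide, as miR-181a-1-3p and miR-181a-2-3p do. They do not divide the reads of the shared guide between its hairpins. For miR-181b only miR-181b-1-3p is listed.
miR-181a-1-3p: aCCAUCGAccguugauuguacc
miR-181a-2-3p: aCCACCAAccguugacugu
miR-181b-1-3p: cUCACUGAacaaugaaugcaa
miR-181c-3p: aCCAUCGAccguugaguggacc
miR-181d-3p: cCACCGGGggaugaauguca

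miR-181a-1-3p and miR-181c-3p share the seed CCAUCGA and differed by U16G and U19G, whereas no other mature miRNA of the RefSeq table held the seed of any of the other 3 passengers.

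The family comes from 6 hairpins in 3 pairs, all on the plus strand in GRCr8. The submitters' notes name rn6 as the genome of the files, so these positions are RefSeq's and not those of the files. Mir181a-1 (chr13:52037067-52037166) and Mir181b1 (chr13:52037228-52037337) lie 61 bases apart within the long noncoding RNA gene LOC108352541. Mir3570 overlaps Mir181a-1. Mir181a2 (chr3:43025563-43025679) and Mir181b2 (chr3:43026666-43026753) lie 986 bases apart, and both overlap the gene Nr6a1 and the long noncoding RNA gene LOC120101539. Mir181c (chr19:40888291-40888396) and Mir181d (chr19:40888474-40888556) lie 77 bases apart and overlap no other listed gene. Because Mir181a-1 and Mir181a2 give the same miR-181a-5p, and the letters of miR-181b-5p were found in the Mir181b2 hairpin as well, the guide counts of miR-181a and miR-181b sum over 2 hairpins each, and those of miR-181c and miR-181d come from 1 hairpin each.

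The deposited value, called the normalized count here, is a read count divided by a size factor of its library. Libraries held 11115049 to 14313839 reads in sham and 8628309 to 11297551 in CCI-ION rats, and the smallest value above 0 stood for 5 reads in every library. Of 48 marker miRNAs of 8 cell types found in the files, 46 were above 0 in all 6 libraries and so were all 11 of the neuronal list. Values per library are given below in the order of replicates 1, 2 and 3 of each group.

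The guides spanned a wide range of abundance in the order miR-181a, miR-181b, miR-181d and miR-181c, which held in all 6 libraries. Normalized counts of miR-181a-5p were 82414, 89019.7 and 99432 in the sham libraries, against 66021, 86838 and 92360.5 in the CCI-ION libraries. The groups overlapped, with CCI-ION replicate 1 lowest. miR-181a-5p ranked 24 by its mean among the 562 miRNAs, 3.58 times the mean of miR-181b-5p. miR-181b-5p had 25295, 26639 and 32324 normalized counts in the sham libraries and 20024, 20526 and 19215 in the CCI-ION libraries. Every CCI-ION library of miR-181b-5p was therefore below every sham library. miR-181d-5p had 11572, 10974 and 11578 normalized counts in sham and 11189, 8711 and 9826 in CCI-ION rats, with overlapping groups.

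miR-181c-5p was the rarest guide. Its sham libraries stood at 530.3, 614 and 612 normalized counts, which 464, 739 and 726 reads gave. Its CCI-ION libraries stood at 1044, 726 and 1131 normalized counts, which 1122, 596 and 1051 reads gave. Every CCI-ION library was above every sham library, with CCI-ION replicate 2 closest to the sham values. Between miR-181c-5p and its neighbour in the same pair, miR-181d-5p, the mean over the 6 libraries was 776 against 10642 normalized counts, although their hairpins lie next to each other.

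Passengers were far rarer, except in the miR-181c hairpin. miR-181a-1-3p had 744, 949 and 1062 normalized counts in sham and 1061, 1318 and 1014 in CCI-ION rats, and the groups overlapped. miR-181c-3p had 434, 559.5 and 555 normalized counts in sham and 619, 701 and 716 in CCI-ION rats, so that every CCI-ION library was above every sham library, as for its guide. miR-181a-2-3p had 146, 155 and 190.5 normalized counts in sham and 142, 192 and 185 in CCI-ION rats, with overlapping groups. miR-181a-1-3p, miR-181c-5p and miR-181c-3p were neighbours in level whose ranges over the 6 libraries overlapped. The other 2 passengers were at the limit of detection. miR-181b-1-3p had 5, 0 and 0 reads in sham and 6, 0 and 5 in CCI-ION libraries, and miR-181d-3p had 0, 0 and 10 reads in sham and 8, 0 and 6 in CCI-ION libraries. A row listed at 0 was below 5 reads and need not be absent, and no direction was read from these rows.

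**Figure D1:**
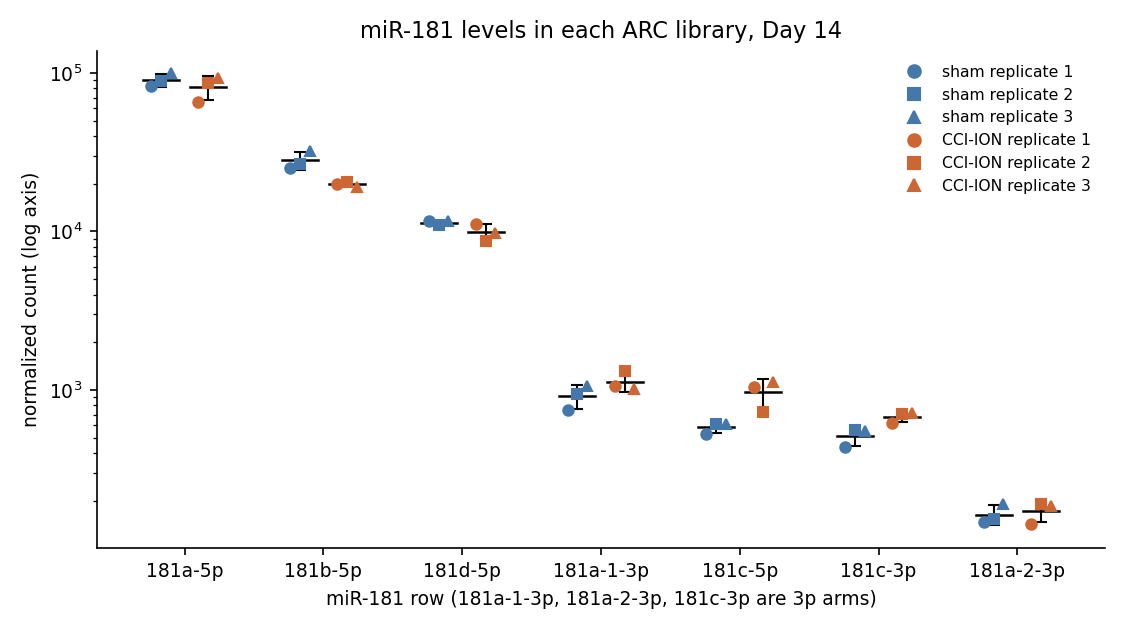
Normalized counts (log axis) of the 7 miR-181 rows above 0 in every library, by group. Each point is a library, horizontal lines are group means and bars are SD (n = 3 libraries); the CCI-ION points lie below all sham points for miR-181b-5p and above them for miR-181c-5p and miR-181c-3p.

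Together the 4 guides held 1.09% ± 0.129 of all reads in the sham group and 1.08% ± 0.130 in the CCI-ION group (SD, n = 3 each). Per library these shares were 0.943%, 1.12% and 1.19% with sham surgery and 0.935%, 1.11% and 1.19% with CCI-ION, and the groups overlapped. In normalized counts the sum was 130335 ± 12361 in the sham group and 112537 ± 12677 in the CCI-ION group (SD, n = 3 each), and these groups overlapped. Set beside 12 other families abundant in brain, the miR-181 guides ranked 9 by their mean share of reads, between the miR-26 family at 2.39% and the miR-29 family at 0.904%. miR-124, a miRNA enriched in neurons, held 0.466% on average.

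Within the guide sum the shares of miR-181b-5p and miR-181c-5p differed between the groups without overlap, and those of the other guides overlapped. The levels of both guides were apart as well, as were those of 40.7% of all miRNAs tested. miR-181a-5p made up 69.3% ± 0.611 of the guide sum in sham and 72.3% ± 4.47 in the CCI-ION group (SD, n = 3 each). miR-181b-5p made up 21.5% ± 0.832 in sham and 17.9% ± 2.36 with CCI-ION (SD, n = 3 each). miR-181c-5p made up 0.443%, 0.483% and 0.425% in the sham libraries and 1.06%, 0.621% and 0.923% in the CCI-ION libraries. miR-181d-5p made up 8.78% ± 0.818 and 8.95% ± 2.12 (SD, n = 3 each).

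CCI-ION was then compared with sham by a two-sided limma test of log2(normalized count + 1). The Benjamini-Hochberg adjustment ran over 555 miRNAs whose mean reached 1, and all 9 miR-181 rows were among them. None of the 9 rows passed the threshold of an adjusted p under 0.05, whereas 38 of all miRNAs tested (6.85%) did, 3.42% as higher and 3.42% as lower. At an unadjusted p under 0.05 there were 3 of the 9 rows, against 33.0% of all miRNAs tested. The groups did not overlap for 3 of the 9 rows, 2 higher and 1 lower in CCI-ION rats, against 40.7% of all miRNAs tested, 19.5% higher and 21.3% lower. Each share of the 9 rows was near or below that of all miRNAs tested. The median log2 fold change was 0.31 for the 9 rows, -0.18 for the 4 guides and -0.01 for all miRNAs tested. The 9 rows include miR-181b-1-3p (0.88) and miR-181d-3p (0.91), both at the limit of detection, which raise the median of the 9. No direction of the family was read from it.

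miR-181c-5p had the largest log2 fold change of the guides, 0.70 (standard error 0.20, 95% confidence interval 0.20 to 1.199, adjusted p = 0.0878 from limma), from 586 ± 47.9 to 967 ± 214 normalized counts (SD, n = 3 each). Without CCI-ION replicate 2, its lowest library in that group, the log2 fold change was 0.89 and passed the threshold (adjusted p = 0.0260 from limma). With any other library left out the log2 fold change was 0.57 to 0.74 and did not pass (adjusted p 0.152 to 0.213 from limma). For miR-181c-3p, the other arm of that hairpin, it was 0.40 (95% confidence interval 0.03 to 0.77, adjusted p = 0.137 from limma), and 0.07 with upper-quartile scaling (adjusted p = 0.799 from limma). The value for miR-181b-5p was -0.49 (standard error 0.13, 95% confidence interval -0.82 to -0.16, adjusted p = 0.0828 from limma), from 28086 ± 3732 to 19922 ± 662 normalized counts (SD, n = 3 each). With upper-quartile scaling it was -0.82 and passed (adjusted p = 0.0252 from limma), and the same scaling took miR-181c-5p to 0.37. With total-count scaling miR-181b-5p stood at -0.29 and did not pass (adjusted p = 0.211 from limma). Nor did it pass with any library left out (adjusted p 0.0973 to 0.211 from limma).

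For the remaining rows the intervals held 0. miR-181a-5p had a log2 fold change of -0.15 (95% confidence interval -0.58 to 0.27), which turned to 0.05 with total-count scaling. miR-181d-5p had -0.21 (95% confidence interval -0.53 to 0.12). The log2 fold change of miR-181a-1-3p was 0.31 (95% confidence interval -0.16 to 0.77) and that of miR-181a-2-3p was 0.08 (95% confidence interval -0.36 to 0.52), and with upper-quartile scaling they turned to -0.02 and -0.25. Each of these intervals holds values on both sides of 0 and is wide beside its estimate, so the rows were not shown to be unchanged. For miR-181b-1-3p and miR-181d-3p the intervals ran from -1.83 to 3.59 and from -2.19 to 4.01.

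**Figure D2:**
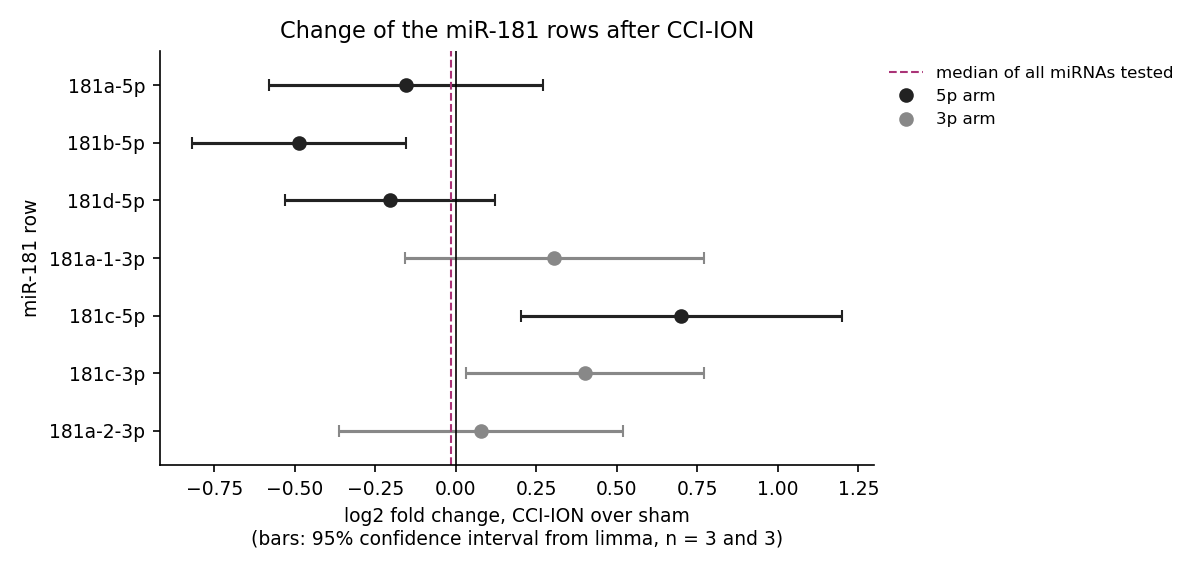
Log2 fold change of CCI-ION over sham (x axis) for the 7 miR-181 rows above 0 in every library, with 95% confidence intervals from limma (n = 3 libraries per group) and the median of all miRNAs tested as a dashed line at -0.01. The intervals of miR-181b-5p, miR-181c-5p and miR-181c-3p leave out 0, and none of the rows passed the adjusted threshold.

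Ratios between guides were compared because the scaling of a library drops out of them. All 3 pairs with miR-181c-5p had groups that did not overlap, and the 3 pairs without it overlapped. The 3 pairs share miR-181c-5p and are not separate results, and its own level, like that of 40.7% of all miRNAs tested, did not overlap between the groups. How reads were divided between miR-181c-5p and the similar, far more abundant miR-181a-5p is not given, so these 3 ratios share that uncertainty. miR-181b-5p was 47.7, 43.4 and 52.8 times as abundant as miR-181c-5p in the sham libraries, against 19.2, 28.3 and 16.98 times in the CCI-ION libraries. This ratio differed by -1.19 on the log2 scale (standard error 0.24, n = 3 each). miR-181a-5p was 155, 145 and 162 times as abundant as miR-181c-5p in sham and 63.2, 119.7 and 81.6 times in CCI-ION libraries, a difference of -0.85 on the log2 scale (standard error 0.27). From the neighbouring hairpins, miR-181c-5p had 0.0458, 0.0560 and 0.0529 normalized counts for each of miR-181d-5p in sham and 0.0933, 0.0833 and 0.115 in CCI-ION libraries, a difference of 0.91 on the log2 scale (standard error 0.16). These 3 differences kept their direction with any library left out. In the exact permutation test the two-sided p was 0.1 for each of the 3 pairs, which is the lowest that this test can give with 3 libraries against 3, and 0.2 after adjustment over the 6 pairs. This test therefore could not pass 0.05 whatever the size of the difference, and no other test was run on these ratios. Of the other pairs, miR-181a-5p to miR-181b-5p differed by 0.33 (adjusted p = 0.24, exact permutation test), from 3.26, 3.34 and 3.08 times in sham to 3.30, 4.23 and 4.81 times in CCI-ION libraries. miR-181b-5p to miR-181d-5p differed by -0.28 (adjusted p = 0.24, exact permutation test), and miR-181a-5p to miR-181d-5p by 0.05 (adjusted p = 0.9, exact permutation test).

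**Figure D3:**
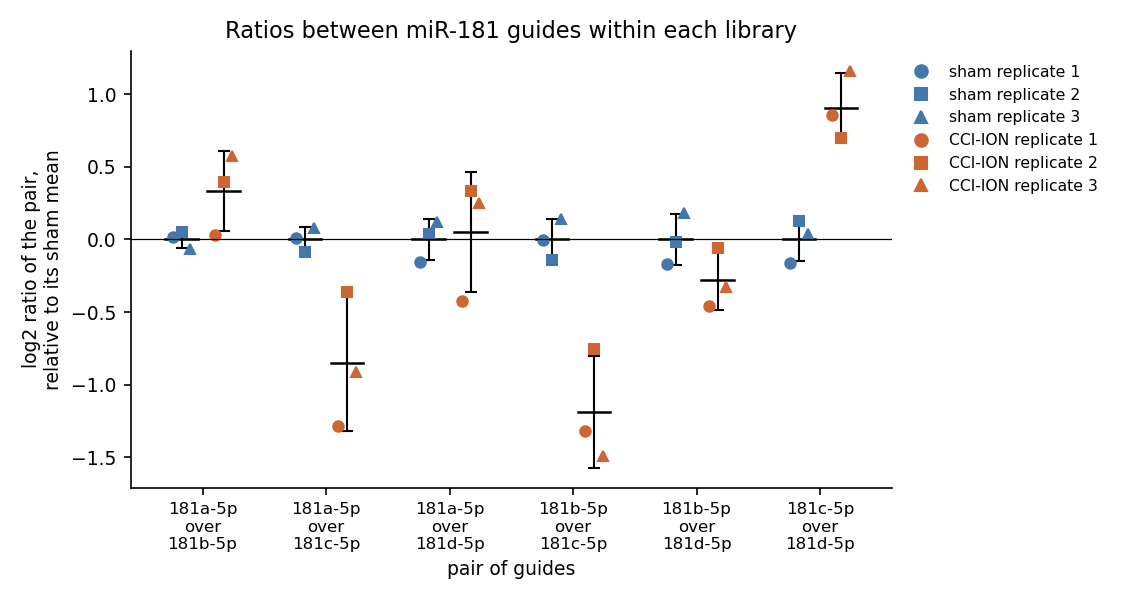
Log2 ratio of each pair of guides within each library, minus the mean of the sham libraries for that pair (y axis), by group. Points are libraries, lines are means and bars are SD (n = 3); the 3 pairs that hold miR-181c-5p have CCI-ION points away from all sham points, with mean differences of -0.85, -1.19 and 0.91.

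The arms of each hairpin were compared in the same way, with limma on the log2 ratio of 5p to 3p over 218 hairpins with both arms at a mean of at least 1. None of the 5 miR-181 hairpins with both arms listed passed the threshold, against 10.1% of all hairpins tested, and none had an unadjusted p under 0.05, against 32.6%. The miR-181c hairpin was nearly balanced: its 5p arm made up 55.0%, 52.3% and 52.5% of the reads of both arms in the sham libraries and 62.8%, 50.9% and 61.3% in the CCI-ION libraries. By the size of its mean log2 ratio it ranked 4 from the most balanced of the 218 hairpins. Its ratio differed by 0.30 on the log2 scale (95% confidence interval -0.26 to 0.85, adjusted p = 0.397 from limma), and the groups overlapped.

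In contrast, miR-181a-5p was 111, 93.8 and 93.6 times as abundant as miR-181a-1-3p in sham and 62.2, 65.9 and 91.1 times in CCI-ION libraries. Every CCI-ION library lay below every sham library, CCI-ION replicate 3 only just, and such separation was found for 41.3% of all hairpins tested. The log2 ratio differed by -0.46 (95% confidence interval -0.95 to 0.03, adjusted p = 0.172 from limma). Against miR-181a-2-3p the ratio was 563, 576 and 522 in sham and 464, 451 and 499 in CCI-ION libraries, again without overlap, a log2 difference of -0.23 (95% confidence interval -0.53 to 0.06, adjusted p = 0.248 from limma). The 5p arm counts both miR-181a hairpins, so neither ratio is that of a single hairpin. The passengers of both hairpins, which are told apart, were 5.60 ± 0.525 to 1 in favour of miR-181a-1-3p in sham and 6.59 ± 1.01 in the CCI-ION group (SD, n = 3 each), and the groups overlapped.

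**Figure D4:**
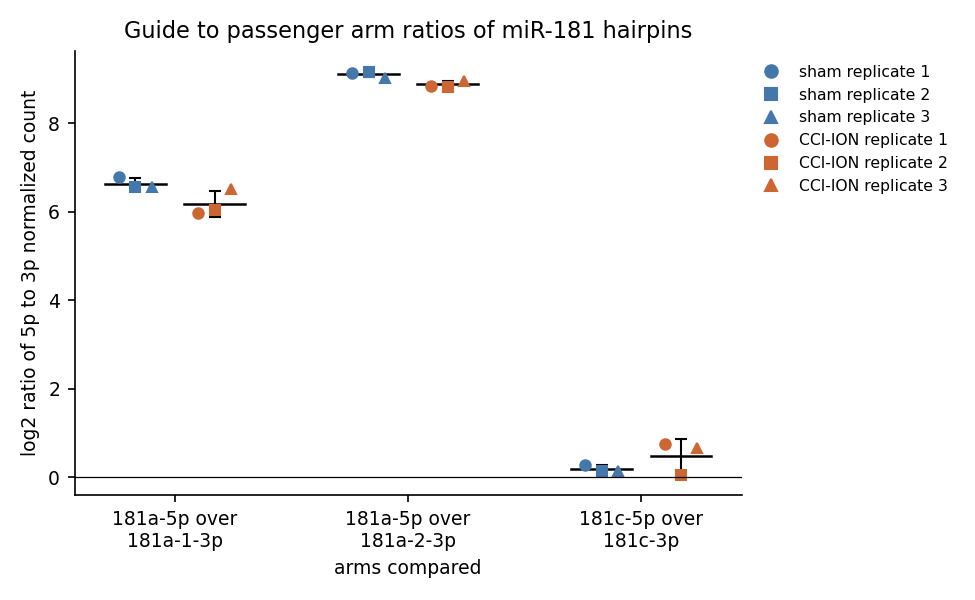
Log2 ratio of 5p to 3p normalized counts (y axis, with 1 added to each count) for the 3 pairs of arms above 0 in every library, by group. Points are libraries, lines are means and bars are SD (n = 3); the miR-181c arms lie near 0, with means of 0.19 in sham and 0.49 in CCI-ION libraries, and the miR-181a ratios between 5.96 and 9.16.

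Of the 48 marker miRNAs of cell types, 4 passed the threshold as higher in CCI-ION rats and 2 as lower. Among all miRNAs tested 6.85% passed, 3.42% in each direction, and 40.7% had groups that did not overlap. In bulk tissue, fewer cells of a type and less of a miRNA per cell cannot be told apart. The summed level of the 11 neuronal miRNAs was 2101137 to 2280774 normalized counts in sham and 1650695 to 2059982 in CCI-ION libraries, without overlap, and 1 of the 11, miR-124-3p, passed the threshold as lower (-0.78 on the log2 scale, limma adjusted p = 0.0435). Most of this sum was miR-9a-5p (log2 fold change -0.17). miR-128-3p had means of 491230 in sham and 258090 in the CCI-ION group (-0.91, limma adjusted p = 0.0597). miR-9a-3p (-1.09) and miR-137-3p (-1.26) were lower as well, and the median of the 11 was -0.26. Only miR-129-5p (0.45), miR-129-2-3p (0.27) and miR-212-3p (0.19) had values above 0. The normalized counts of all miRNAs together were also lower, 10319534 to 10511462 in CCI-ION against 11316959 to 12703108 in sham libraries. For the 4 oligodendrocyte miRNAs the sum was 13685 to 19928 in sham and 10471 to 11303 in CCI-ION libraries, and 1 of the 4, miR-338-3p, passed as lower (log2 fold change -1.27). miR-219a-5p, an oligodendrocyte marker, was listed at 0 in 4 of the 6 libraries. miR-181a is also known from lymphocytes. The sum of the 7 immune cell miRNAs was 18847 to 22578 in sham and 17609 to 18421 in CCI-ION libraries, all 7 were above 0 in every library, and 0 of the 7 passed the threshold. Most of that sum was miR-146b-5p (log2 fold change -0.25) and miR-146a-5p (-0.04). miR-150-5p (-0.45) and miR-142-3p (-0.84) were lower as well, whereas miR-223-3p (0.95), miR-142-5p (0.47) and miR-155-5p (0.06) were higher. Among 6 miRNAs of vascular smooth muscle and fibroblasts 3 passed as higher, miR-143-3p, miR-145-5p and miR-199a-5p, and the sum of all 6 was 41749 to 58068 in sham and 88764 to 107506 in CCI-ION libraries. The 2 endothelial miRNAs summed to 45442 to 54854 in sham and 63095 to 70810.3 in CCI-ION libraries, and neither passed. Nearly all of that sum was miR-126a-3p (log2 fold change 0.44), whereas miR-126a-5p had -0.91. For erythrocytes 0 of 3, for choroid plexus and ependyma 0 of 5 and for pituitary and epithelium 1 of 10 (miR-203a-3p, as higher) passed, and the sums overlapped between groups. Their ranges in sham and in CCI-ION libraries were 2837 to 3798 and 2898 to 3660.3 for erythrocytes, 65993 to 90237 and 85001 to 108839 for choroid plexus and ependyma, and 16324 to 23195 and 20604 to 51334 for pituitary and epithelium. All 10 pituitary and epithelium miRNAs had log2 fold changes above 0 (0.57 to 1.45, median 0.91). The same held for the 5 of choroid plexus and ependyma (0.05 to 0.57). Most of the erythrocyte sum was miR-486 (-0.08). miR-451-5p had 1.07 (limma adjusted p = 0.0649), and miR-144-5p, listed at 0 in 3 libraries, had -1.12. The part of all these cell types in the values of miR-181b-5p and miR-181c-5p was not tested.

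The miRNAs most like miR-181a-5p over the 6 libraries were chosen among 357 miRNAs outside the family with a mean of at least 100, by the root mean square difference of their log2 values after each was centred on its own mean. let-7b-3p was closest (0.104), followed by miR-146a-5p (0.115), miR-26a-5p (0.117), miR-493-5p (0.126) and miR-1843a-3p (0.128), against a median of 0.297 over all candidates. For the sum of the 4 guides let-7b-3p was again closest (0.0786), followed by miR-26a-5p (0.0992), miR-493-5p (0.107), miR-674-5p (0.107) and miR-146a-5p (0.108). The log2 fold changes of these 6 miRNAs lay between -0.38 and -0.04, and each lay below 0. They were chosen by likeness over the sham and CCI-ION libraries together, so this direction follows in part from the choice.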

How the data were processed

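miRNAs of the ARC were sequenced in 3 sham and 3 CCI-ION libraries, grouped by the sample titles. The submitters' notes name cutadapt 1.14, Bowtie 1.1.1 and the genome build rn6, without their roles. The counting, the miRNA annotation, the use of strand and the normalization are not given in the sources used here. The authors deposited 1 signal value per mature miRNA and library. Within a library all values were whole multiples of a step (within 0.01 of a read) and the smallest above 0 was 5 steps, so the deposited signal is a read count over a size factor. Taking 1 step as 1 read, reads were recovered for depth and shares only.

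Log2 values (pseudocount 1) of miRNAs with a mean of at least 1 were compared with limma 3.58.1 in R 4.3.3, two-sided, without covariates. The fit covered the whole table, as did that of the log2 ratio of 5p to 3p. Ratios of guides were tested by exact permutation (SciPy 1.17.1). No replicate was a duplicate of another within the counting noise of its reads. Both limma fits were checked on simulated data, where 199 of 200 changed miRNAs and 37 of 40 changed hairpins were called in the right direction. The simulated spread followed the same rule for every miRNA and was not fitted to these libraries. The check therefore covers the procedure and not its error rates here.

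The family, the 8 lists of cell type markers, the 12 families and the rule for miRNAs named (all rows of the family and the 5 of most similar profile) were chosen with earlier results of these data known. miRNAs of the lists were named where they passed the threshold, and some others (miR-219a-5p and those that make up or go against a sum) after their values were seen. Alternatives were other scalings, filters and pseudocounts, a replicate block, an intensity trend and leaving out each library. Sequences, positions and neighbouring genes come from RefSeq (GRCr8), where all 9 rows of the family were matched.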

Additional observations from a re-analysis of the deposited data

How the results depend on the processing

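The test of the 9 miR-181 rows gave 0 calls and kept 0 under total-count scaling, no filter, a mean of at least 10, a pseudocount of 0.1 and the replicate block. Upper-quartile scaling gave 1 (miR-181b-5p), and an intensity trend, chosen after seeing the data, gave 2 (miR-181b-5p, adjusted p = 0.0330, and miR-181c-5p, adjusted p = 0.0417, from limma). With a library left out the count was 0 to 1, the 1 being miR-181c-5p without CCI-ION replicate 2. Over all alternatives the log2 fold change of miR-181c-5p was 0.37 to 0.90 (adjusted p 0.0260 to 0.233) that of miR-181c-3p 0.07 to 0.60 (adjusted p 0.0834 to 0.799) and that of miR-181b-5p -0.82 to -0.29 (adjusted p 0.0252 to 0.211, limma). The median over all miRNAs tested was -0.01, and other scalings set it at 0.17 (total counts) and -0.34 (upper quartiles). Against these medians miR-181c-5p was 0.74 and 0.71 higher and miR-181b-5p stood at -0.45 and -0.48. The direction turned for miR-181a-5p (0.048, total counts), miR-181a-1-3p (-0.024, upper quartiles) and miR-181a-2-3p (-0.25, upper quartiles; -0.0033 to 0.213 with a library left out). The summed guides, -0.21 as log2 ratio of means, gave -0.012 with total counts, -0.55 with upper quartiles and -0.28 to -0.12 with a library left out. The cause of these moves was not tested.

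All miRNAs past the threshold numbered 38 (50.0% higher), 51 (82.4% higher) with total counts, 117 (7.69% higher) with upper quartiles, 63 with a mean of at least 10, 88 with the intensity trend, 3 with the replicate block and 7 to 43 with a library left out, 9, 11 and 7 of these without sham replicates 1, 2 and 3 and 11 without CCI-ION replicate 3. The replicate numbers were not taken as a pairing, since libraries of the same number had correlated deviations of only -0.03, 0.19 and -0.01. For the miR-181 hairpins the arm ratio gave 0 calls in every alternative, and of all hairpins 22 were called, 0 with the block and 1 to 21 with a library left out. The ratio of miR-181a-5p to miR-181d-5p ranged from -0.088 to 0.29 with a library left out, and the other 5 ratios of guides kept their direction in all alternatives, among them from -1.10 to -0.64 for miR-181a-5p to miR-181c-5p, -1.40 to -1.04 for miR-181b-5p to miR-181c-5p and 0.78 to 1.01 for miR-181c-5p to miR-181d-5p. Tests on recovered reads with edgeR and DESeq2 were planned and not run, because the check of whole reads takes the smallest value above 0 as 1 read, whereas it is 5 steps in these files. Depth limits miR-181b-1-3p and miR-181d-3p, at 10 reads or fewer, and its effect on the other rows, such as miR-181a-2-3p with 128 to 226 reads, was not tested.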

Other observations

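The 5 passengers of the family, summed, came to 1330.3, 1663 and 1816 normalized counts in the sham libraries, against 1835, 2211 and 1927 in the CCI-ION libraries, so that every CCI-ION library was above every sham library. As a share of reads they made up 0.0134% ± 0.00255 in sham and 0.0191% ± 0.00183 in the CCI-ION group (SD, n = 3 each). Most of the sum was miR-181a-1-3p, whose own groups overlapped. Of all miRNAs tested, 19.5% were separated as higher in the same way. With upper-quartile scaling the log2 fold changes were -0.02 for miR-181a-1-3p, -0.25 for miR-181a-2-3p and 0.07 for miR-181c-3p. miR-181a-1-3p was more abundant than the guide miR-181c-5p in 5 of the 6 libraries, with a ratio of 1.40, 1.54 and 1.74 in the sham libraries and of 1.02, 1.81 and 0.896 in the CCI-ION libraries. miR-181a-1-3p and miR-181c-3p, which share a seed, had a ratio of 1.77 ± 0.122 in sham and 1.67 ± 0.234 in the CCI-ION group (SD, n = 3 each), and the groups overlapped.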
